A study of Arabidopsis thaliana with 6 samples.

Results

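Transcripts of 5 nuclear genes of photosynthesis were followed in whole Arabidopsis thaliana seedlings grown on scutellarin, a flavone glucuronide made by skullcaps: LHCB4.3 (AT2G40100), PSAN (AT5G64040), PSBY (AT1G67740), SBPASE (AT3G55800) and CHLI2 (AT5G45930). The 5 genes were picked by name after they had been seen to be lower on scutellarin in these same arrays, so their differences between treatments are given as a description with no test. Each gene was read by 1 probe set (a group of short probes that together report a transcript), which makes 5 of the 22746 probe sets in the table of the Affymetrix ATH1 array and 5 of 13350 genes named there. None of the 5 carries the suffix that marks possible cross-hybridisation with related genes, and all 5 lay among the 15922 probe sets kept after the lowest 30% by mean log2 intensity were left out.

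The scutellarin group held 3 arrays of Columbia seedlings treated for 10 days with 100 µM scutellarin in 1% DMSO, and the mock group held 3 arrays of Columbia seedlings kept for the same time on 1% DMSO alone. Seeds of both groups were kept dark at 4 °C for 2 days on wet filter paper. Both groups were then raised at 25 °C under a day length of 12 h at the same light intensity, and both carried the solvent. Per the series' design text the 3 samples of a group came from independent experiments, each with whole seedlings pooled. Median intensities of the 6 arrays lay between 144.8 and 162.3, and 3 arrays per group limit the precision of every value below.

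In the chloroplast, light harvesting proteins pass excitation energy to photosystem II and photosystem I, which drive electrons to NADP+ and power ATP synthesis. The Calvin cycle spends this ATP and NADPH to fix carbon dioxide and then to rebuild its acceptor, ribulose bisphosphate. Chlorophyll, which both photosystems and their antennae bind, is made in the plastid from glutamate through a magnesium-porphyrin branch that begins at magnesium chelatase. Most of the enzymes and many subunits of these systems are encoded in the nucleus, while the reaction centre proteins and the large subunit of Rubisco are encoded in the plastid.

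All 5 genes had lower intensities in scutellarin seedlings, at 56.5% to 73.3% of the mock level (ratio of geometric means), and for each gene all 3 scutellarin arrays lay below all 3 mock arrays. Over the kept probe sets, 18.6% had such a separation with scutellarin lower. Because the genes were chosen from this contrast, nothing is read from that count. In bulk seedlings, fewer green cells and less RNA per green cell cannot be told apart.

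LHCB4.3 encodes an isoform of CP29, a minor antenna protein of photosystem II that sits between the outer antenna and the core. Its intensity was 553, 554 and 657 in scutellarin replicates 1 to 3, against 863, 1306.5 and 988 in mock replicates 1 to 3. The highest scutellarin array reached 76.1% of the lowest mock array, and the coefficient of variation was 10.2% among scutellarin arrays and 21.7% among mock arrays, the more scattered group. The means were 588 ± 60.1 in scutellarin seedlings and 1053 ± 228 in mock seedlings (SD, n = 3 each), a log2 difference of -0.82 ± 0.17 (SE).

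PSAN encodes a subunit of photosystem I on the lumen side, where plastocyanin delivers electrons. Its intensity was 13848.5, 11565 and 12169 in scutellarin replicates 1 to 3, against 18535, 19348 and 20450.6 in mock replicates 1 to 3. The groups stood well apart, with the highest scutellarin array at 74.7% of the lowest mock array. The log2 difference was -0.64 ± 0.11 (SE).

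PSBY encodes a precursor of small membrane proteins of photosystem II. Its intensity was 17730.6, 14308 and 14158 in scutellarin replicates 1 to 3, against 19961, 21319 and 21435 in mock replicates 1 to 3. Scutellarin replicate 1 came close to the mock arrays, at 88.8% of the lowest of them. PSBY had the smallest log2 difference of the 5, -0.45 ± 0.12 (SE), and after quantile normalization between arrays it was -0.25.

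SBPASE encodes sedoheptulose-bisphosphatase, an enzyme of the Calvin cycle that commits carbon to the rebuilding of ribulose bisphosphate. Its intensity was 6153, 5627 and 4507 in scutellarin replicates 1 to 3, against 10500.2, 8893 and 8514 in mock replicates 1 to 3. Its groups had the widest gap of the 5 genes, the highest scutellarin array being at 72.3% of the lowest mock array. The means were 5429 ± 841 in scutellarin seedlings and 9302 ± 1055 in mock seedlings (SD, n = 3 each), a log2 difference of -0.78 ± 0.14 (SE).

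CHLI2 encodes an isoform of the smallest subunit of magnesium chelatase, an ATPase that works with the subunits CHLD and CHLH to insert magnesium into protoporphyrin. Its intensity was 470.4, 501 and 376 in scutellarin replicates 1 to 3, against 808, 603 and 652 in mock replicates 1 to 3. Both groups scattered about equally, with a coefficient of variation of 14.5% among scutellarin and 15.5% among mock arrays. The highest scutellarin array was at 83.0% of the lowest mock array, and the log2 difference was -0.61 ± 0.17 (SE).

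**Figure D1:**
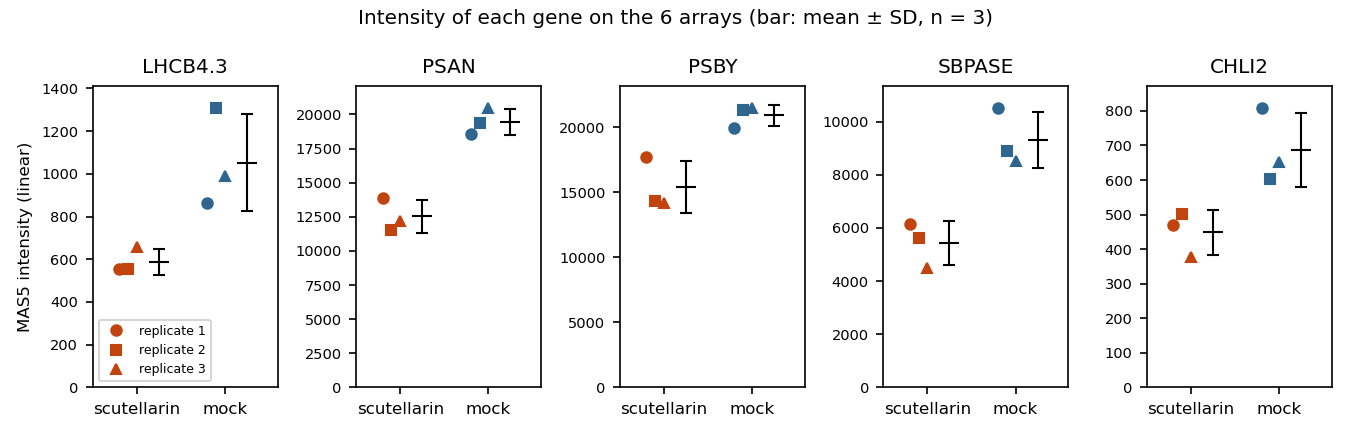
Intensity (linear scale, y axis from 0) of LHCB4.3, PSAN, PSBY, SBPASE and CHLI2 on each scutellarin and mock array, with replicate numbers by symbol and the mean ± SD (n = 3) beside the points. In every panel the 3 scutellarin arrays lie below the 3 mock arrays, with the narrowest gap for PSBY.

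The differences of the 5 genes ran from -0.82 to -0.45 with a median of -0.64, beside a median of -0.04 over all kept probe sets. These sizes were not rare on the arrays. A more negative difference than that of LHCB4.3 was seen at 4.58% of the kept probe sets, than that of SBPASE at 5.26%, PSAN 8.91%, CHLI2 9.65% and PSBY 17.4%.

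Within a treatment the 5 genes did not rank the arrays alike. SBPASE and CHLI2 were both lowest in scutellarin replicate 3, at log2 deviations from the scutellarin mean of -0.26 and -0.25, and both highest in mock replicate 1, at 0.18 and 0.24 above the mock mean. The photosystem genes PSAN and PSBY were, like SBPASE, highest among the scutellarin arrays in replicate 1 (0.15 and 0.21, and 0.19 for SBPASE), but among the mock arrays they were lowest in replicate 1 (-0.07 for each), where SBPASE and CHLI2 were highest. LHCB4.3 differed from these 4 genes in being highest in scutellarin replicate 3 (0.17) and in mock replicate 2 (0.33). With 3 arrays per group these orders are a description only.

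**Figure D2:**
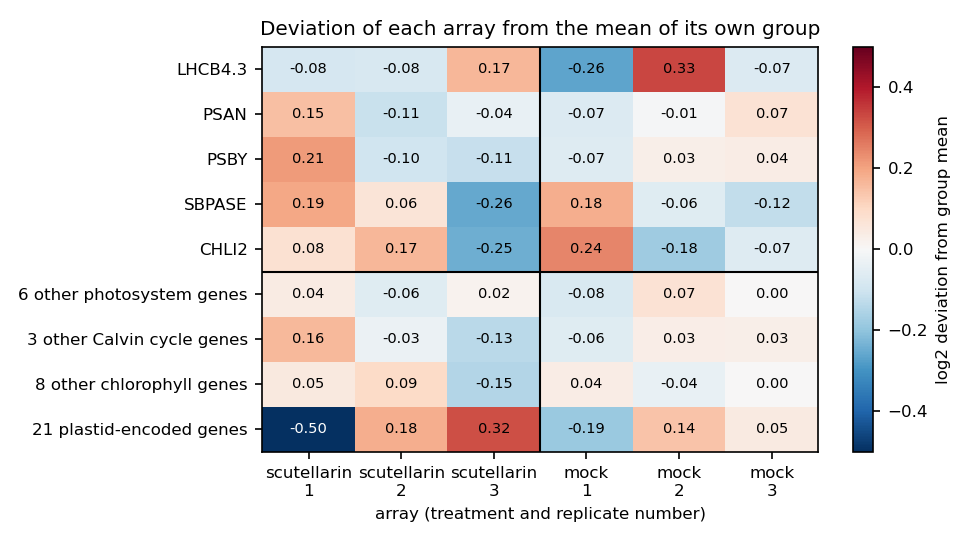
Log2 deviation of each array (columns) from the mean of its own treatment group for the 5 genes and, below the line, for the mean of the other named genes of the same pathways and of 21 plastid-encoded photosynthesis genes. SBPASE and CHLI2 share a low scutellarin replicate 3 and a high mock replicate 1, and the plastid-encoded mean is low in scutellarin replicate 1 (-0.50), where PSAN, PSBY, SBPASE and CHLI2 are above their group mean.

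The probe sets of the 5 genes differed in brightness. PSAN and PSBY were read by probe sets in the brightest 1% of those kept, SBPASE lay at the 97.6th percentile, LHCB4.3 at the 73.5th and CHLI2 at the 65.1st. A probe set's brightness also depends on its probes, so these ranks do not order the transcripts by abundance. In the brightest 1% (160 probe sets) the median log2 difference was -0.21, 73.1% of the values were negative, 23.1% fell and 1.88% rose (limma, adjusted p under 0.05). In the decile of brightness that holds LHCB4.3 the median was -0.03, and in that of CHLI2 it was -0.05.

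Quantile normalization, which forces the same distribution of intensities on every array, brought the median of the brightest 1% to -0.02. PSAN then had a log2 difference of -0.46 and PSBY one of -0.25, whereas SBPASE, LHCB4.3 and CHLI2 had -0.73, -0.82 and -0.60. Of the 14 alternatives, 5 change only the test or the set of probe sets and cannot move a difference. Under the other 9, which include the omission of each array in turn, the 5 values stayed negative, as could be foreseen of genes chosen for it. How much of the PSAN and PSBY difference belongs to the shift of bright probe sets was not tested.

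**Figure D3:**
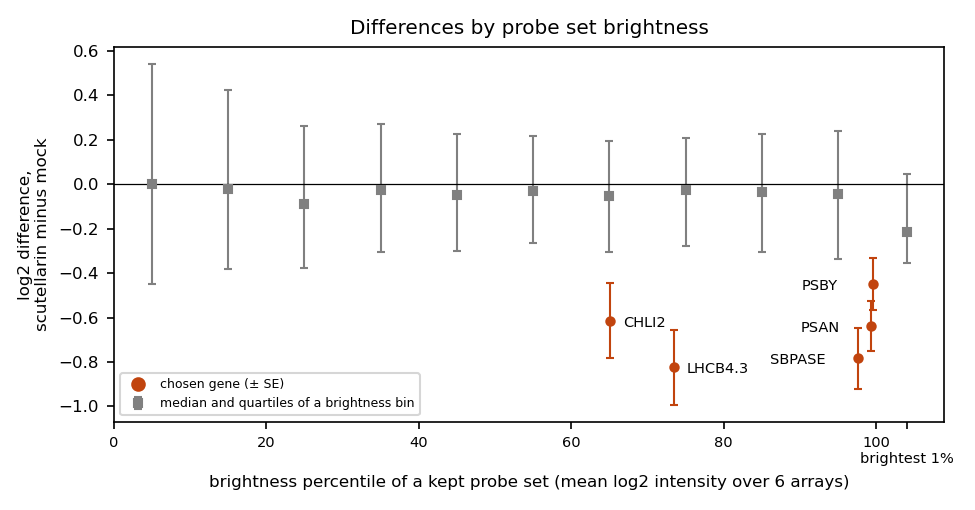
Log2 difference (scutellarin minus mock, y axis) against the brightness percentile of the probe set (x axis), with the median and quartiles of the kept probe sets in each brightness decile and in the brightest 1% (grey) and the 5 genes with their SE (orange). The medians lie near 0 in every decile and at -0.21 in the brightest 1%, the range of PSAN and PSBY.

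**Figure D4:**
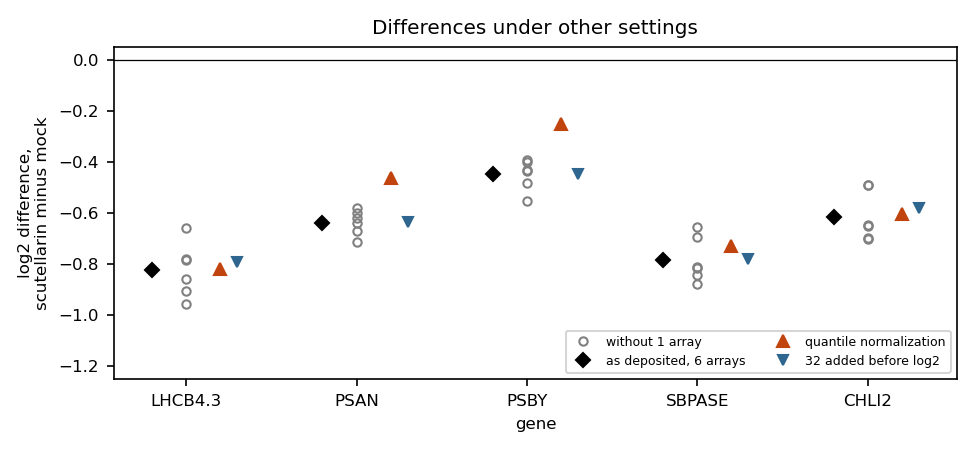
Log2 difference (scutellarin minus mock, y axis) of each of the 5 genes on the deposited intensities of 6 arrays, without each array in turn, after quantile normalization and with 32 added before log2. All values are below 0, and quantile normalization moves PSAN and PSBY the most.

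Among the light harvesting and photosystem genes that were not chosen for their difference, 1 fell. Of 46 listed genes other than LHCB4.3, PSAN and PSBY, 6 had a named probe set and all 6 were kept. In a limma fit over all kept probe sets, in which 19.4% of the probe sets changed, 9.11% downwards and 10.3% upwards, at a Benjamini-Hochberg adjusted p under 0.05, 1 of these 6 fell and none rose. All 6 values were negative, with a median of -0.27 beside -0.04 over all probe sets. However, 4 of the 6 lay in the brightest 1% of probe sets, where the median was -0.21, and after quantile normalization the median of the 6 was -0.12, with 2 values positive.

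The gene that fell was PSB27, which encodes an assembly factor of photosystem II. Its intensity was 8688, 9672 and 9694 in scutellarin replicates 1 to 3, against 12038, 12801 and 12633 in mock replicates 1 to 3. No scutellarin array reached the mock range, and the log2 difference was -0.42 ± 0.11 (SE, limma adjusted p = 0.0159). The call was lost without mock replicate 2 or mock replicate 3 (adjusted p = 0.0717 and 0.0604), with no filter on low values (0.0519) and with no variance trend (0.0768).

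LHCB4.3 has 2 paralogs, LHCB4.1 and LHCB4.2, that encode the other isoforms of CP29. LHCB4.1 was at 21836, 16286 and 20037.7 in scutellarin replicates 1 to 3, against 21972, 22583 and 22297 in mock replicates 1 to 3. LHCB4.2 was at 21888, 20740.7 and 22164 in scutellarin replicates 1 to 3, against 21329.6, 26620.0 and 26848 in mock replicates 1 to 3, so that its groups overlapped. Neither paralog passed (limma adjusted p = 0.255 and 0.264), their log2 differences were -0.21 ± 0.12 and -0.20 ± 0.12 (SE), and after quantile normalization they were 0.03 and 0.04. The difference in response between LHCB4.3 and its paralogs was not tested, since LHCB4.3 was chosen for its own.

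Of the remaining photosystem genes, PSBW, which encodes a small photosystem II protein, had a log2 difference of -0.34 ± 0.12 without passing (limma adjusted p = 0.0704). Without mock replicate 1 PSBW passed (0.0313). AT1G51400, in the list as a photosystem II subunit gene, had -0.30 ± 0.11 (adjusted p = 0.0747). PSAE-1, for a stromal subunit of photosystem I near the ferredoxin docking site, had -0.24 ± 0.10 (adjusted p = 0.130), and -0.016 after quantile normalization. That normalization also brought PSBW to -0.22. The groups did not overlap for these 3 genes, a separation that 18.6% of all kept probe sets had with scutellarin lower. Of 14 listed genes of electron transport and ATP synthesis 3 were named, none passed in limma, and all 3 were negative. Each of the 3 had an unadjusted p under 0.05. Over all kept probe sets 19.4% changed. In the brightest 1%, which holds 2 of the 3, 73.1% of the values were negative. The 3 genes were ATPC1, the gamma subunit of the chloroplast ATP synthase (-0.33 ± 0.12), PGRL1B of cyclic electron flow (-0.55 ± 0.20), and AT2G26500 (-0.31 ± 0.12). After quantile normalization ATPC1 had -0.18, AT2G26500 had -0.097 and PGRL1B had -0.54. The groups of PGRL1B overlapped. In some alternatives these 3 genes passed: ATPC1 without scutellarin replicate 1 (limma adjusted p = 0.0185) and AT2G26500 without mock replicate 1 (0.0451). PGRL1B passed with median centring (0.04255) and without scutellarin replicate 2 (0.0454).

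In the Calvin cycle, 2 of the 3 named genes other than SBPASE fell and none rose, of 23 listed, where 9.11% of all kept probe sets fell and 19.9% of those in the brightest decile did. PRK, phosphoribulokinase, which makes ribulose bisphosphate and so acts downstream of SBPASE, had intensities of 9071, 7526 and 6148 in scutellarin replicates 1 to 3. In mock replicates 1 to 3 it had 12002, 11760.1 and 10570.2. Within both groups the arrays ranked in the same order as for SBPASE, and the log2 difference was -0.61 ± 0.14 (SE, limma adjusted p = 0.0102), a call lost with no variance trend (0.0639).

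RCA, Rubisco activase, had a smaller difference, -0.38 ± 0.12 (SE, limma adjusted p = 0.0383). Its intensities were 30427.7, 26123 and 27717 in scutellarin replicates 1 to 3 and 32598, 36914 and 40661 in mock replicates 1 to 3. RCA was not called in 9 of 14 alternatives, among them the replicate number as a block (adjusted p = 0.0612) and quantile normalization (0.405), where its difference was -0.13. AT1G56190, in the list with the reduction steps of the cycle, was at 0.14 ± 0.13 (SE) and did not pass (adjusted p = 0.476).

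Photorespiration recycles the product of Rubisco's reaction with oxygen. Of 12 listed genes 3 were named, of which 2 fell and none rose, beside 9.11% of all kept probe sets that fell and 19.9% in the brightest decile, which holds all 3. HPR, the peroxisomal hydroxypyruvate reductase, had intensities of 13406, 11093 and 11399 in scutellarin replicates 1 to 3, against 17646, 20872 and 21863 in mock replicates 1 to 3. Its groups were apart and its log2 difference of -0.75 ± 0.12 (SE, limma adjusted p = 0.00131) was close in size to that of SBPASE. After quantile normalization HPR had -0.56 and SBPASE had -0.73. AT1G11860 had -0.54 ± 0.11 (adjusted p = 0.00541), and AT1G80380 had -0.17 ± 0.13 without passing. The calls of HPR and AT1G11860 held in all 14 alternatives.

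Of 26 listed chlorophyll synthesis genes other than CHLI2, 8 were named and kept, and in limma none fell, none rose and none had an unadjusted p under 0.05. Over all kept probe sets 9.11% fell and 10.3% rose, and with 8 genes nothing is read from the count. The median log2 difference of the 8 genes was -0.14. Their values ran from -0.34 ± 0.20 for HEMA2, a glutamyl-tRNA reductase gene at the entry of the pathway, to 0.09 ± 0.17 for GSA1, of the next step (SE). CHLM, the methyltransferase that follows magnesium chelatase, had -0.24 ± 0.11, and PORB, a light-dependent protochlorophyllide reductase, had -0.09 ± 0.15. HEME2, for uroporphyrinogen decarboxylase, had -0.27 ± 0.13, and the named breakdown gene NOL, for a chlorophyll b reductase, had -0.22 ± 0.18 without passing.

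**Figure D5:**
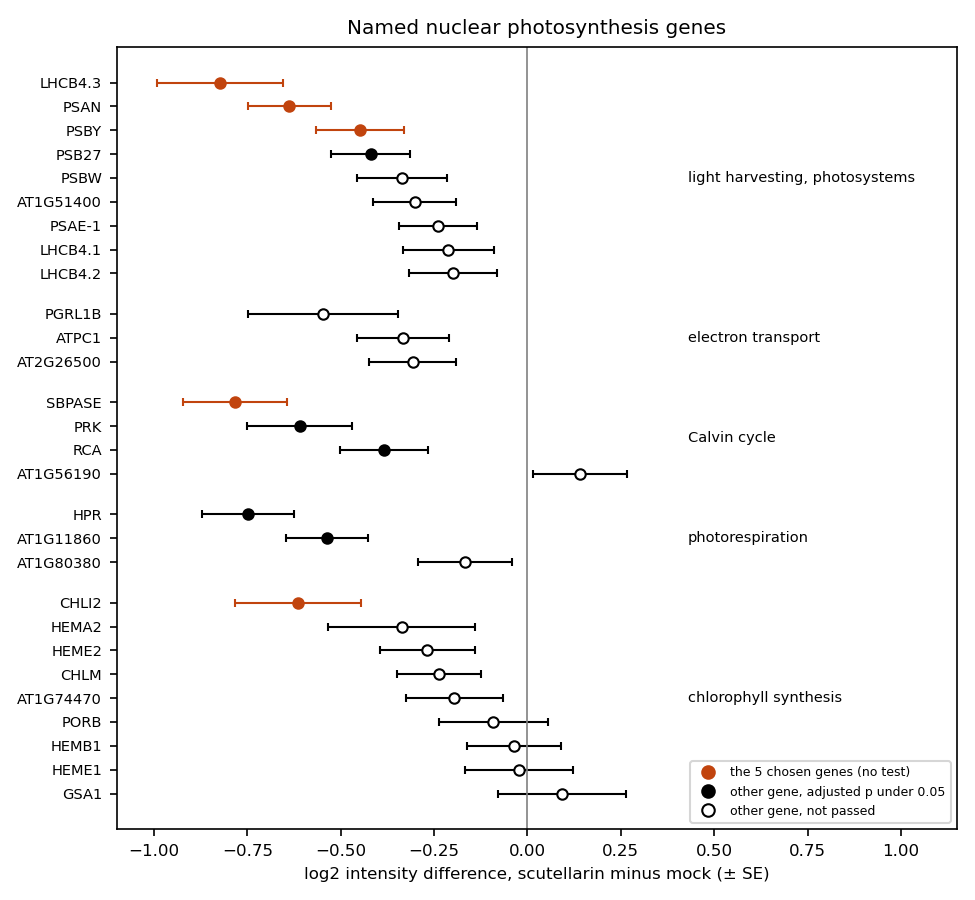
Log2 difference (scutellarin minus mock, x axis, ± SE) of every named and kept nuclear gene of light harvesting and the photosystems, electron transport, the Calvin cycle, photorespiration and chlorophyll synthesis. The 5 chosen genes (orange, no test) stand beside the other genes, of which PSB27, PRK, RCA, HPR and AT1G11860 passed in limma (filled) and the rest did not (open).

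Most plastid-encoded partners of the nuclear genes had negative differences too, unevenly between arrays. Of 21 plastid-encoded photosystem and Rubisco genes 6 fell in limma and 15 stayed above the threshold, and no gene rose. Over all kept probe sets 9.11% fell and 10.3% rose. In the brightest decile of probe sets, which holds 13 of the 21, 19.9% fell and 13.3% rose. Of the 21 values 20 were negative. The share of negative values was 52.8% in that decile and 73.1% in the brightest 1%, which holds 5 of the 21. The median log2 difference of the 21 genes was -0.51, and -0.46 after quantile normalization. Without scutellarin replicate 1, an omission tried after the data were seen, it was -0.27 and 5 genes fell. psbC, an inner antenna protein of photosystem II, had the most negative value, -0.89 ± 0.16 (SE, limma adjusted p = 0.00225). psaI had -0.83 ± 0.39 without passing (adjusted p = 0.159), and -0.19 without scutellarin replicate 1. psbZ had -0.77 ± 0.18 (adjusted p = 0.0110), a call lost without mock replicate 2 (0.0550) and with no variance trend (0.0687). The mean log2 intensity of the 21 genes was 10.99, 11.68 and 11.82 in scutellarin replicates 1 to 3 and 11.80, 12.13 and 12.03 in mock replicates 1 to 3. Scutellarin replicate 1, low for the plastid genes, was the highest scutellarin array for PSAN, PSBY and SBPASE. For LHCB4.3 scutellarin replicates 1 and 2 were about level, at 553 and 554, below replicate 3 at 657. Mock replicate 1 was the lowest mock array for the plastid mean and likewise for LHCB4.3, PSAN and PSBY. Without scutellarin replicate 1 the 5 nuclear genes had log2 differences between -0.88 and -0.55.

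Root hair and root markers moved beside the 5 genes. Of 13 listed root hair markers 4 were named and all 4 rose, where 10.3% of all kept probe sets rose. Their summed intensity lay between 2420 and 3292 on scutellarin arrays and between 33.3 and 80.4 on mock arrays. Their mean log2 intensity was 8.65 to 9.10 on scutellarin arrays and 2.65 to 3.88 on mock arrays. The filter on mean intensity therefore kept them largely through the scutellarin arrays, and the lists were chosen with earlier results known. Nothing is read from that count. Of 9 listed root markers 4 were named, of which 2 rose and 2 fell, with a summed intensity of 12971 to 15579.6 on scutellarin and 8402 to 9807 on mock arrays. That sum is mostly PYK10, a root beta-glucosidase gene (11460.5 ± 1573 in scutellarin and 5757 ± 357 in mock seedlings, SD, n = 3 each), and the mean log2 intensity of the 4 markers overlapped, at 10.68 to 10.71 on scutellarin and 10.28 to 10.80 on mock arrays. Of 11 listed shoot markers 1 was named, the guard cell gene FMA (AT3G24140, also FAMA), at -0.35 ± 0.28 (SE) without passing, so the share of shoot in the RNA could not be gauged with it. The part of a different share of root in the lower values of the 5 genes was not tested.

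The named probe sets most like each gene over the 6 arrays were mostly of genes with no symbol beyond their locus. Likeness was the Pearson correlation of log2 intensity over 6 arrays, which mainly follows the split between the groups. The closest to LHCB4.3 was AT3G03870 (r = 0.999), to PSAN AT1G64355 (0.997), to PSBY AT5G63480 (0.994), to SBPASE AT1G79510 and to CHLI2 AT1G02410 (both 0.998). The next for each were AT5G01650, CYP71B5, AT3G20340, AT2G41120 and AT3G01340. To the average of the 5 scaled profiles the closest were AT1G32740, AT4G37290, AT5G55210, AT2G40200 and AT5G38980 (0.994 to 0.998). Of 8703 named probe sets 213 had a correlation above 0.95 with that average, and none of these closest genes belongs to the photosynthesis lists.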

How the data were processed

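The authors deposited 1 linear-scale intensity for each probe set on each array, made with MAS5 per the submitters' processing notes. The version is not given in the sources used here, and detection calls were not used. The lowest value was 1 on every array, and the mean after trimming 2% at each end lay between 493.9 and 495.1, so the arrays share a scale. Probe sets were named from a platform table through gene ID against RefSeq (TAIR10.1): 13513 named 1 gene (13436 matched RefSeq), 503 several genes, and 8730, absent from the platform table, have no name here. The plastid-encoded list was matched by symbol.

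Log2 intensities were compared, scutellarin minus mock, by a two-sided moderated test in limma 3.58.1 under R 4.3.3 (lmFit, then eBayes with its trend option), and p-values were adjusted over 15922 probe sets by Benjamini-Hochberg. Fell and rose mean an adjusted p under 0.05. A gene with several probe sets was read by the brightest. The model was run on simulated data, independent normal values drawn with its own fitted means and variances. Such data hold no effects shared by an array, so the run cannot test the model against them. The members and lists were chosen with earlier results of these data known. All kept genes of the photosystem, Calvin and chlorophyll lists could be named, and up to 3 with the largest difference in the other pathway lists. The lists of regulators and of chlorophyll breakdown had 0 and 1 named genes. The settings varied were the scaling (quantile or median), the filter (none or 50%), the offset before log2 (32), the variance prior (without trend, or robust), a replicate block, the omission of each array or of cross-hybridising probe sets, and averaging the probe sets of 1 gene. Figures used matplotlib 3.10.9.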

Additional observations from a re-analysis of the deposited data

How the results depend on the processing

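Changed probe sets numbered 3094 (1450 fell), 2035 to 2836 without 1 array, and fallen ones 801 to 1450 without 1 array, the lower value of each without mock replicate 2. Fallen probe sets were 933 without mock replicate 3, 940 without scutellarin replicate 3 and 862 with no variance trend. Quantile normalization gave log2 differences of -0.46 for PSAN and -0.25 for PSBY, and turned LHCB4.1 and LHCB4.2 to 0.0297 and 0.0426. The count of other photosystem genes that changed, 1 and fallen, was 0 with no filter or no variance trend and 0 to 2 without 1 array (0 without mock replicate 2 or 3, 2 without mock replicate 1). That of other Calvin cycle genes, 2 and fallen, was 1 with quantile normalization, median centring, no filter or the replicate block, 0 with no variance trend, and 1 to 2 without 1 array (1 without replicate 2 or replicate 3 of either group). With no variance trend, PSB27, PRK and psbZ had adjusted p of 0.0768, 0.0639 and 0.0687 in limma. The cause was not tested. The chlorophyll count stayed at 0 in every alternative. Without 1 array, GSA1 ranged from -0.0772 to 0.205, HEMB1 from -0.122 to 0.0513, HEME1 from -0.108 to 0.0385 and PORB from -0.200 to 0.0438. Without 1 array LHCB4.3 ranged from -0.96 to -0.66, PSAN from -0.71 to -0.58, PSBY from -0.55 to -0.39, SBPASE from -0.88 to -0.65 and CHLI2 from -0.70 to -0.49. Deviations of same-numbered arrays correlated across probe sets at -0.04, -0.09 and 0.11, with no sign of pairing by replicate number. Differently numbered arrays were not compared, and the labels do not say whether a number marks a shared experiment. The replicate block called 2921 probe sets and changed no other call of a named gene than that of RCA. Signal over background was not used here, so low intensities could not be told from background.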
